A study of Homo sapiens with 6 samples.

Results

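ERBB2 lies on the long arm of chromosome 17 among a group of genes that are often copied together with it when the region is amplified in a tumour. This group was read here as 10 genes, in chromosome order CDK12, PPP1R1B, STARD3, TCAP, PNMT, PGAP3, ERBB2, MIEN1, GRB7 and IKZF3, out of 17719 gene symbols with an mRNA probe on the arrays. The rule that lists them goes by place on the chromosome. In the scanner files 0 spots carried a gene name, so every probe sequence was matched to transcripts of GENCODE release 44 without mismatch, and a probe belonged to a gene when it matched one of its transcripts in sense. This gave 31 probes, namely 10 for CDK12, 6 for ERBB2, 5 for GRB7, 2 each for PPP1R1B, STARD3 and MIEN1, and 1 each for TCAP, PNMT, PGAP3 and IKZF3. The 10 genes span chr17:39461486-39864312 of hg38, a stretch of 402827 bases.

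The cell line label and the source of every sample name SKOV-3, an established human ovarian cancer line that is widely used as a line with ERBB2 amplification, whereas the sample titles and the culture note carry other numbers after SKOV. DNA copy number was not measured in these data, and all arrays hold RNA of this 1 line. Total RNA was labelled with Cy3 and hybridised to single-color Agilent arrays. According to their labels, 3 arrays hold cells given 1α,25(OH)2D3, the hormonally active form of vitamin D, at 100 nmol/L for 72 h, and 3 hold cells given vehicle, which was ethanol at the matching concentration, over the same 72 h. The labels do not say whether replicates came from separate cultures, so a p-value here measures only the spread between these arrays, which may be technical.

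ERBB2, also called HER2, is a receptor tyrosine kinase that has no known ligand of its own and signals by pairing with the other receptors of its family, EGFR, ERBB3 and ERBB4. GRB7 is an adapter that binds activated receptors of this kind through its SH2 domain. When the region is amplified in breast, gastric and some ovarian cancers, STARD3, PGAP3, MIEN1 and GRB7 are commonly copied and expressed along with ERBB2, whereas CDK12 and IKZF3 lie toward the edges of the segment.

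Every array carried 175812 spots besides the controls, of which 0 were saturated, and 49.1% to 57.5% of 125601 probes were well above background. CYP24A1, the enzyme that breaks down 1α,25(OH)2D3 and a textbook target of the hormone, went against the labels. Its probe A_23_P28815 stood on the log2 scale at 2.23, 13.84 and 3.30 in replicates 1, 2 and 3 of the 1α,25(OH)2D3 label and at 14.18, 4.75 and 14.34 in those of the vehicle label. Arrays are for this reason called by their label, and higher or lower always refers to the labels. On slide 1 were the first and second replicates labelled 1α,25(OH)2D3, and slide 2 held the other 4 arrays, the third replicate of that label and all 3 vehicle-labelled ones. A value on slide 2 alone therefore sets 1 array against 3, and its p assumes that the lone array varies like the others. Of the epithelial markers, the brightest probes of KRT7, KRT8 and KRT19 lay above 99.7%, 99.2% and 97.4% of mRNA probes and that of EPCAM above 84.7%, KRT18 had an intron probe alone, at 55.8%, and CDH1 was well above background on 1 array. Of 7 markers of leukocytes, endothelium and fibroblasts, 5 had a probe well above background on every array, at or under 57.0% of mRNA probes, and the fibroblast markers DCN and LUM were so on 0 and 1 arrays.

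Some probes lie in introns or across the border of an exon and an intron, and their sequences show which part of the gene each of them matches. They are printed in lower case with capitals for the bases that lie in an exon of the gene's canonical transcript, 5′ to 3′ on the plus strand of hg38, as given in the scanner files and placed by their single exact match. The ERBB2 probe OEV5_48593 (chr17:39725822-39725880) takes its first 32 bases from exon 23 and its last 27 from the intron behind it, and OEV5_27786 (chr17:39720066-39720125) lies wholly in intron 16. Among the GRB7 probes, A_23_P163992 (chr17:39746128-39746187) lies in coding exon 14, OEV5_42262 (chr17:39742831-39742890) lies in intron 3, and OEV5_42582 (chr17:39742863-39742922) starts in that intron and ends in exon 4. The PPP1R1B probe OEV5_29371 (chr17:39629436-39629495) lies in intron 2.
ERBB2 OEV5_48593: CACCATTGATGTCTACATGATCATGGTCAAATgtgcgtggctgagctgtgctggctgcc
ERBB2 OEV5_27786: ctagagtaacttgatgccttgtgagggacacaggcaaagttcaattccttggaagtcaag
GRB7 A_23_P163992: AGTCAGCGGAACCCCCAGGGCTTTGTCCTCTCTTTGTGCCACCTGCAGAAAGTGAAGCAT
GRB7 OEV5_42262: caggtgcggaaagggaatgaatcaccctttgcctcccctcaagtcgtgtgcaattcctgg
GRB7 OEV5_42582: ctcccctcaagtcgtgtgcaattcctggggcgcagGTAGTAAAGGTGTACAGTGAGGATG
PPP1R1B OEV5_29371: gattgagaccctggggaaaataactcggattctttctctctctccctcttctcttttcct
The intron and border probes match transcripts that GENCODE annotates as retaining an intron. The exon bases of a border probe also lie in the spliced mRNA, so which RNA gave its signal cannot be told from the sequence. Another GRB7 probe, OEV5_39042, shares 58 bases with OEV5_42262, so these probes are not separate measurements.

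Most of the 10 genes were read by bright probes. The level of a probe is given here as its percentile, the share of the 26900 mRNA probes with a lower value on the same array, averaged over the 6 arrays. A probe's brightness depends on its own binding as well as on the amount of RNA, so percentiles describe probes and do not measure one gene's RNA against another's. By the brightest probe of each gene, of any class, 9 of the 10 genes were well above background on each of the 6 arrays, the median percentile was 92.8, and 6 genes stood at or above 90. With only the probes that match a protein-coding transcript, the median of the members was 89.4 and 5 of the 10 stood at or above 90. The brightest mRNA probe of each of 17719 gene symbols gave a median of 56.8, with 12.7% of genes at or above 90. IKZF3 was the exception among the members, with its probe well above background on 0 arrays.

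**Figure D1:**
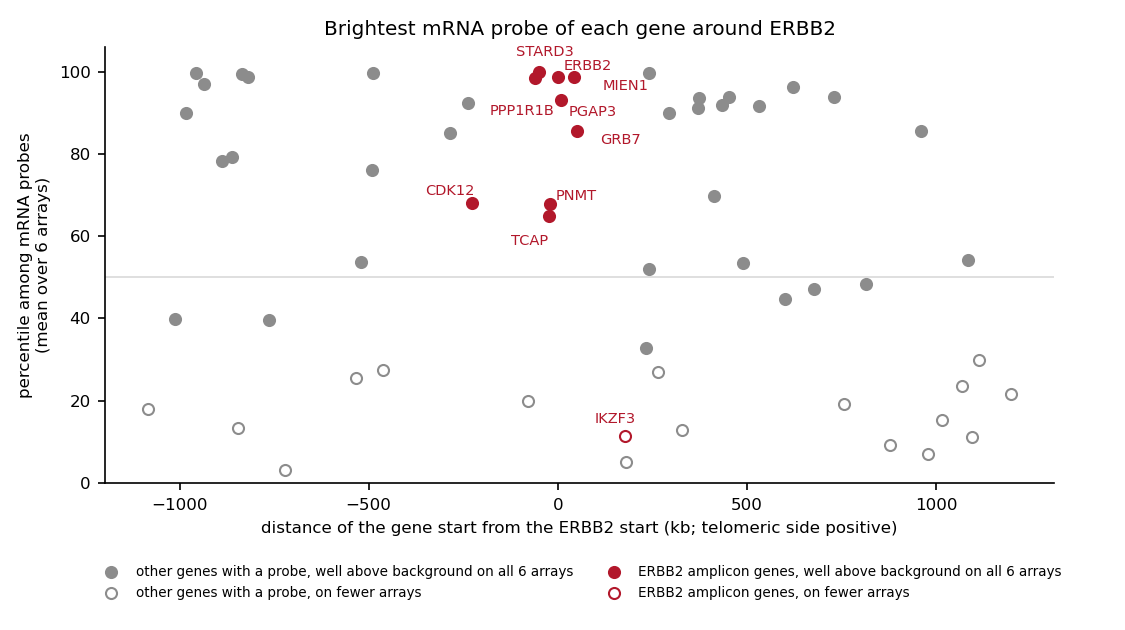
Percentile of the brightest mRNA probe of each gene, averaged over the 6 arrays, against the distance of the gene start from the ERBB2 start in kilobases, telomeric side positive. Red points are the members, gray points other genes, and open points were well above background on fewer than 6 arrays; STARD3, ERBB2, MIEN1, PPP1R1B and PGAP3 sit at or above 93.2, and IKZF3 at 11.5.

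ERBB2 (chr17:39687914-39730426, plus strand) was measured at 2 bright places and 4 dimmer ones. The log2 value of A_23_P89249, in the 3′ untranslated end of the mRNA, was 13.80, 13.25 and 14.18 on the 1α,25(OH)2D3-labelled arrays and 14.36, 13.62 and 13.09 on the vehicle-labelled ones, in the order of replicates 1, 2 and 3 that is kept for all values, at a percentile between 98.1 and 99.1. The array labelled vehicle replicate 1 was highest and replicate 3 of that label lowest, so the groups overlapped. In the genome this probe lies opposite MIEN1, whose transcript runs on the other strand there.

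OEV5_48593, across the border of exon 23 shown above, was the brightest of the 6 ERBB2 probes. Its log2 values were 14.28, 13.88 and 14.51 on the 1α,25(OH)2D3-labelled arrays and 14.42, 13.82 and 13.70 on the vehicle-labelled ones. It kept a percentile of at least 98.7 on every array. The intron 16 probe OEV5_27786 lay between 7.23 and 8.66, at a mean percentile of 64.9. The other 3 ERBB2 probes, OEV5_27636, A_33_P3292596 and OEV5_39746, lie outside the canonical transcript and had mean percentiles of 36.1, 52.3 and 66.5. A median over all 6 ERBB2 probes would put the gene at 65.7.

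GRB7 (chr17:39737927-39747291, plus strand) gave unlike readings in its coding part and in intron 3. The coding exon probe A_23_P163992 had log2 values of 10.60, 9.33 and 11.13 on the 1α,25(OH)2D3-labelled arrays and 10.96, 10.01 and 8.63 on the vehicle-labelled ones. Its percentile ran from 71.4 on vehicle-labelled replicate 3 to 93.4 on 1α,25(OH)2D3-labelled replicate 3. The spread was wide for this platform, since its SD over the 6 arrays, 0.98, was larger than that of 99.4% of the 18191 mRNA probes well above background on all 6.

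The brightest GRB7 probe was OEV5_42262 in intron 3, with log2 values of 11.26, 11.14 and 11.04 on the 1α,25(OH)2D3-labelled arrays and 10.90, 10.73 and 10.75 on the vehicle-labelled ones. Here the SD over the 6 arrays was 0.22 and the 3 values under one label lay above the 3 under the other. The overlapping probe OEV5_39042 ran from 10.67 to 11.25 with the same separation. By contrast, OEV5_42582, which shares 28 bases with OEV5_42262 and reaches into exon 4, ran from 7.32 to 8.69 with its highest value on 1α,25(OH)2D3-labelled replicate 3, as did the coding probe. OEV5_50726 in intron 6 was well above background on 5 arrays and ran from 3.73 on vehicle-labelled replicate 3 to 6.83 on 1α,25(OH)2D3-labelled replicate 3, and it put the arrays in the same order as the coding probe.

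**Figure D2:**
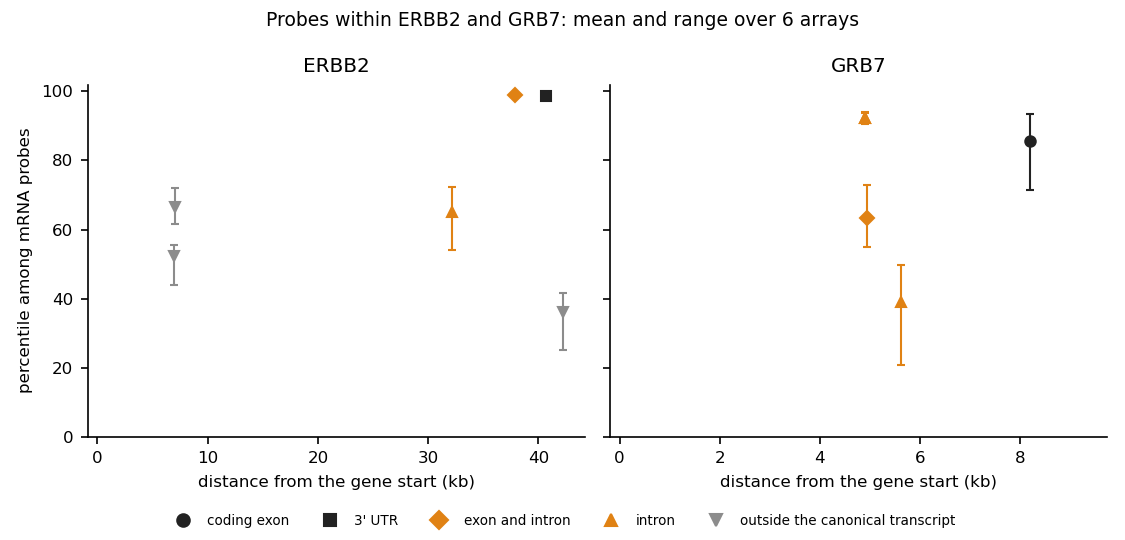
Percentile among mRNA probes for each probe of ERBB2 and GRB7 against its distance from the gene start in kilobases, with points for the mean and bars for the range over the 6 arrays, and symbols for the place of the probe. The 2 bright ERBB2 probes at 98.7 and 98.98 lie near the end of the gene, and the coding GRB7 probe has a range from 71.4 to 93.4.

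STARD3 (chr17:39637090-39664201, plus strand), a cholesterol-binding protein of late endosomes, had the brightest probe of all members. A_33_P3356220 stood at 16.98, 16.95 and 17.29 on the 1α,25(OH)2D3-labelled arrays and at 17.26, 17.22 and 17.33 on the vehicle-labelled ones, a percentile of at least 99.8 on every array. A probe upstream in the same untranslated end, A_33_P3246804, stood at 12.34, 11.82 and 12.53 on the 1α,25(OH)2D3-labelled arrays and at 12.18, 11.73 and 11.31 on the vehicle-labelled ones. The pair did not follow one another, because vehicle-labelled replicate 3 was the highest for the first and the lowest for the second.

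MIEN1 (chr17:39728496-39730532, minus strand), a small membrane-anchored protein named for its part in migration and invasion, was read by 2 probes that gave the 6 arrays the same order. A_23_P3982 had log2 values of 13.65, 13.30 and 14.06 on the 1α,25(OH)2D3-labelled arrays and 13.78, 13.47 and 13.16 on the vehicle-labelled ones. OEV5_34370 ran from 11.30 on vehicle-labelled replicate 3 to 12.04 on 1α,25(OH)2D3-labelled replicate 3, as A_23_P3982 did between the same arrays. PGAP3 (chr17:39671122-39696797, minus strand), which remodels the lipid of GPI anchors, was read by A_24_P275828, with values of 11.13, 10.89 and 11.54 on the 1α,25(OH)2D3-labelled arrays and 11.49, 10.86 and 11.03 on the vehicle-labelled ones, at a mean percentile of 93.2.

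PPP1R1B (chr17:39626740-39636626, plus strand) encodes DARPP-32, an inhibitor of protein phosphatase 1 known from dopamine signalling in the brain. Its probe in the untranslated end, A_23_P129835, was at 13.35, 13.07 and 13.61 on the 1α,25(OH)2D3-labelled arrays and at 13.94, 12.99 and 13.00 on the vehicle-labelled ones, a mean percentile of 98.4. The intron 2 probe OEV5_29371 shown above was as high in rank, at 98.3, with values of 13.91, 13.53 and 12.97 on the 1α,25(OH)2D3-labelled arrays and 13.03, 13.06 and 12.88 on the vehicle-labelled ones. The arrays that were highest differed, vehicle replicate 1 for the first probe and 1α,25(OH)2D3 replicate 1 for the second.

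TCAP and PNMT, which lie between STARD3 and PGAP3 and are known from other tissues, had middle levels. TCAP (chr17:39665349-39666554) encodes telethonin, a protein of the muscle sarcomere, and the values of its probe A_23_P107051 were 8.34, 8.44 and 8.03 on the 1α,25(OH)2D3-labelled arrays and 8.13, 7.74 and 8.02 on the vehicle-labelled ones, at a mean percentile of 65.0. PNMT (chr17:39667981-39670475) encodes the enzyme that turns noradrenaline into adrenaline in the adrenal medulla. Its coding exon 3 probe A_23_P100642 had values of 8.86, 8.28 and 8.81 on the 1α,25(OH)2D3-labelled arrays and 8.76, 7.24 and 8.09 on the vehicle-labelled ones, at a mean percentile of 67.8. Both probes were well above background on all 6 arrays.

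At the edges of the segment lie CDK12 and IKZF3. CDK12 (chr17:39461486-39567559, plus strand), a kinase that phosphorylates RNA polymerase II, had 2 probes for its mRNA, and A_24_P198820 stood at 8.59, 8.48 and 8.31 on the 1α,25(OH)2D3-labelled arrays and at 8.37, 8.27 and 8.13 on the vehicle-labelled ones, a mean percentile of 68.03. The second, A_33_P3315801, ran from 7.78 to 8.41. The other 8 CDK12 probes lie outside its canonical transcript, on the telomeric side of these, and match transcripts annotated as degraded by nonsense-mediated decay, as retaining an intron or as without a defined coding sequence; their mean percentiles ran from 33.8 for OEV5_38054 through OEV5_41236, OEV5_32222, OEV5_64422, OEV5_38626, OEV5_32347 and A_21_P0009243 to 68.9 for OEV5_78325. IKZF3 (chr17:39757718-39864312, minus strand) encodes Aiolos, a transcription factor of lymphocytes, and its probe A_23_P376060 lay between 2.20 and 2.85 on the 6 arrays.

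**Figure D3:**
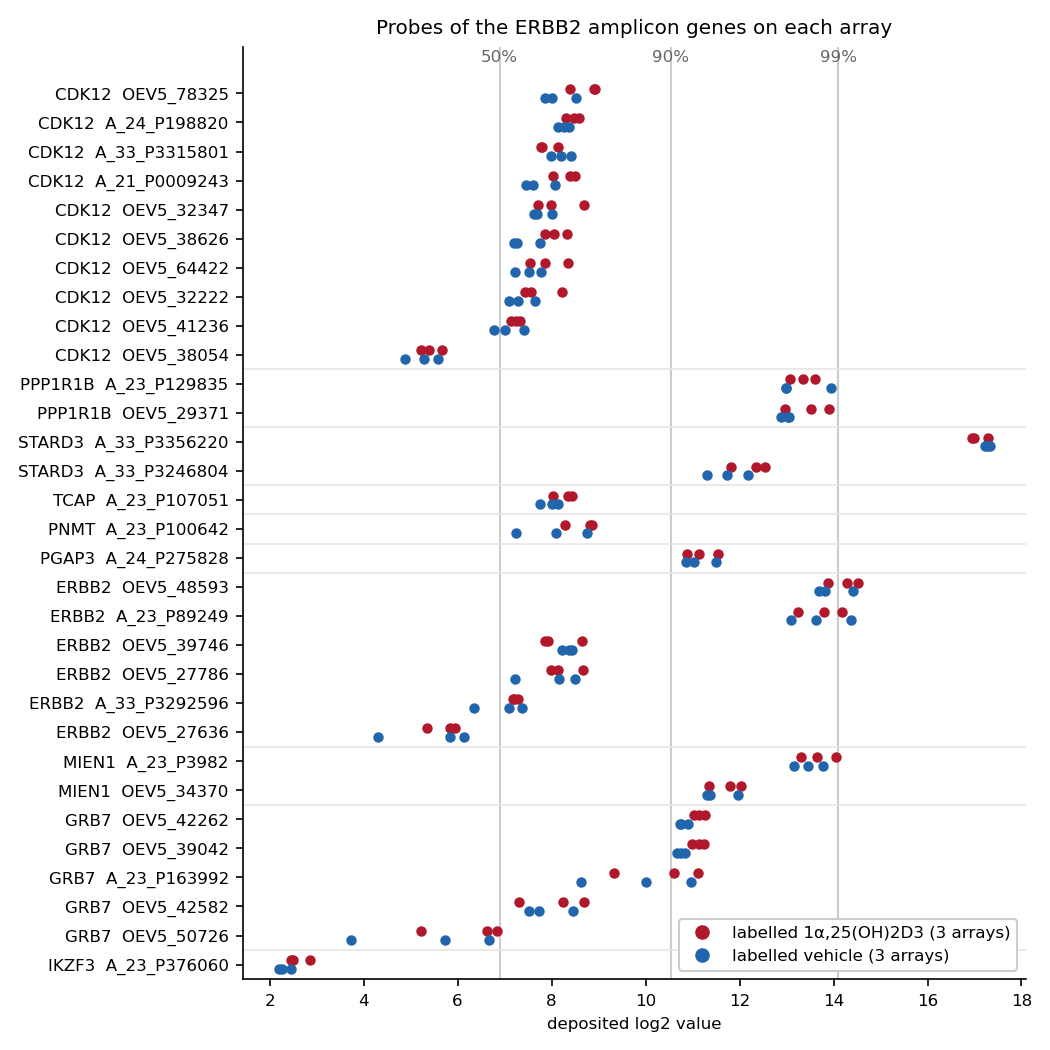
Deposited log2 values of all 31 probes of the members on each array, in chromosome order of the genes, with red points for the 3 arrays labelled 1α,25(OH)2D3 and blue points for the 3 labelled vehicle. Gray lines mark the values below which 50%, 90% and 99% of mRNA probes lie (6.89, 10.53 and 14.10); the STARD3 probe A_33_P3356220 lies beyond the last and the IKZF3 probe at the far left.

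The labels were compared probe by probe to ask whether the amplicon genes differed between the treatments named. At a change of more than 2-fold and an unadjusted p under 0.05, called the unadjusted threshold here, limma called 0 member probes. The study's results give a fold change and a p with no adjustment named, and its methods a larger change with an adjusted p. In the limma fit made here, 30 of the 31 member probes could be tested, and 0.745% of 63337 probes over the whole table passed the unadjusted threshold. After Benjamini-Hochberg adjustment over the whole table, 0 probes of any gene passed at that fold change (0% of those tested), and the smallest adjusted p in limma was 0.701. Without the fold criterion, 5 of 30 member probes had an unadjusted p under 0.05, against 6.77% of all probes tested. All 5 were higher on the 1α,25(OH)2D3-labelled arrays, a class that held 4.00% of all probes, and they were 3 CDK12 probes outside its canonical transcript and the overlapping pair of GRB7 intron 3. The count of 5 was 1 without 1α,25(OH)2D3-labelled replicate 1, without vehicle-labelled replicate 2 or without vehicle-labelled replicate 3. The labelled groups did not overlap for 3 of the 30 probes, all higher on the 1α,25(OH)2D3-labelled arrays, beside 7.03% of all probes in that direction and 12.2% in either. The 3 were the CDK12 probe OEV5_38626 and the overlapping pair of GRB7 intron 3, whose probes are not separate measurements.

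ERBB2 itself showed no difference that exceeded the spread. Under the 1α,25(OH)2D3 label the mean of A_23_P89249 was 13.74 ± 0.47 (SD, n = 3), and under the vehicle label it was 13.69 ± 0.64 (SD, n = 3). The log2 fold change was 0.05 with an SE of 0.36 and an adjusted p of 0.975 in limma. For OEV5_48593 the log2 fold change was 0.24 with an SE of 0.25 and an adjusted p of 0.795 in limma, and it was 0.10 without either label's replicate 3 and 0.46 without vehicle-labelled replicate 1. For the coding GRB7 probe it was 0.49 with an SE of 0.64 and an adjusted p of 0.840 in limma. Without vehicle-labelled replicate 3 the value of A_23_P89249 was -0.25 and that of the coding GRB7 probe -0.13, and without 1α,25(OH)2D3-labelled replicate 3 A_23_P89249 stood at -0.17. Slide 1 held 1 label only, so a fit with the slide as a block rests on the 4 arrays of slide 2, and there the 3 values were 0.49, 0.53 and 1.26 in the same order.

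In GRB7 intron 3 the difference was small against a small spread. OEV5_42262 had a mean of 11.15 ± 0.11 (SD, n = 3) under the 1α,25(OH)2D3 label and of 10.79 ± 0.09 (SD, n = 3) under the vehicle label, and its log2 fold change was 0.36 with an SE of 0.15. Its unadjusted p was 0.0450 and its adjusted p 0.701 in limma. On slide 2 alone the difference was 0.25. Among the CDK12 probes outside the canonical transcript, OEV5_38626 differed most, with a mean of 8.08 ± 0.23 (SD, n = 3) against 7.40 ± 0.31 (SD, n = 3) and an adjusted p of 0.701 in limma.

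For the remaining genes the brightest probes differed by -0.20 to 0.62 on the log2 scale. STARD3 was the 1 gene of the 9 tested whose brightest probe was lower under the 1α,25(OH)2D3 label, at -0.20 with an SE of 0.16, and on slide 2 alone its difference was 0.01. The other STARD3 probe, A_33_P3246804, went the other way, at 0.49 with an SE of 0.27, and neither passed the test. PNMT stood at 0.62 with an SE of 0.37, the CDK12 probe OEV5_78325 at 0.62 with an SE of 0.24, TCAP at 0.31, MIEN1 at 0.20, PGAP3 at 0.06 and PPP1R1B at 0.03. With 1 array left out PNMT ran from 0.23 without vehicle-labelled replicate 2 to 0.99 without vehicle-labelled replicate 1, and MIEN1 from 0.00 without 1α,25(OH)2D3-labelled replicate 3 to 0.38 without 1α,25(OH)2D3-labelled replicate 2. Over all 30 probes 27 had a positive log2 fold change and the median was 0.29, beside 49.4% positive and a median of 0.00 over all probes tested. Many of the 30 share a gene, and some share bases, so they are not separate readings. Without vehicle-labelled replicate 3 the median was 0.12 with 20 positive, without 1α,25(OH)2D3-labelled replicate 3 it was 0.16 with 23 positive, and without vehicle-labelled replicate 1 it was 0.46. The 12 mRNA probes of the members had a median of 0.19, and the same omissions gave 0.03, 0.01 and 0.37. On slide 2 alone, with 1 array against 3, the medians were 0.50 over the 30 probes and 0.45 over the 12.

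**Figure D4:**
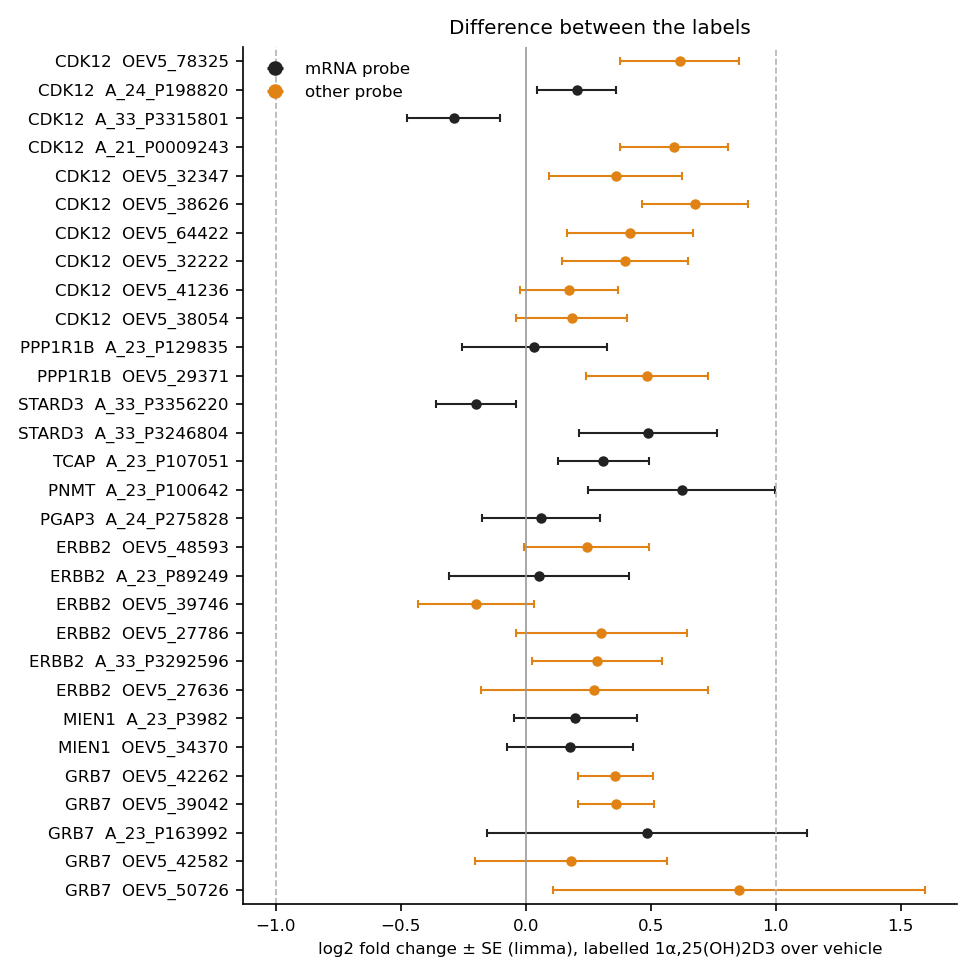
Log2 fold change of the 30 member probes tested, arrays labelled 1α,25(OH)2D3 over the vehicle-labelled ones, with bars for the limma standard error, black for mRNA probes and orange for the others. Dashed lines mark a fold change of 2; all points lie within them, from -0.29 to 0.85, and 27 lie to the right of 0.

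The members varied from array to array, and several of them did so in the same order. Of their 12 mRNA probes well above background on all 6 arrays, 5 were highest on 1α,25(OH)2D3-labelled replicate 3, where 12.3% of all mRNA probes of this kind had their highest value, and 6 were lowest on vehicle-labelled replicate 3, where 18.7% of all had their lowest. None was lowest on 1α,25(OH)2D3-labelled replicate 3 or on vehicle-labelled replicate 1. Relative to each probe's own mean, the median of the 12 stood at 0.39 on 1α,25(OH)2D3-labelled replicate 3, 0.27 on vehicle replicate 1, 0.12 on 1α,25(OH)2D3 replicate 1, -0.18 on vehicle replicate 2, -0.25 on 1α,25(OH)2D3 replicate 2 and -0.29 on vehicle replicate 3. Over the 18191 mRNA probes the same medians lay between -0.04 and 0.04.

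Among these 12 mRNA probes the range over the arrays was widest for GRB7, at 2.49, followed by PNMT at 1.63 and ERBB2 at 1.27. The coding GRB7 probe stood 1.016 above its mean on 1α,25(OH)2D3-labelled replicate 3 and at -1.48 on vehicle-labelled replicate 3, and the ERBB2 probe A_23_P89249 stood at 0.47 and -0.63 on the same arrays. The mRNA probes of MIEN1, PGAP3, PPP1R1B and PNMT and the STARD3 probe A_33_P3246804 were likewise above their means on both the arrays labelled 1α,25(OH)2D3 replicate 3 and vehicle replicate 1 and below them on the arrays labelled 1α,25(OH)2D3 replicate 2, vehicle replicate 2 and vehicle replicate 3. TCAP, the other STARD3 probe and the CDK12 mRNA probes did not have this order. The array order was described after the values were seen, and its cause was not tested.

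**Figure D5:**
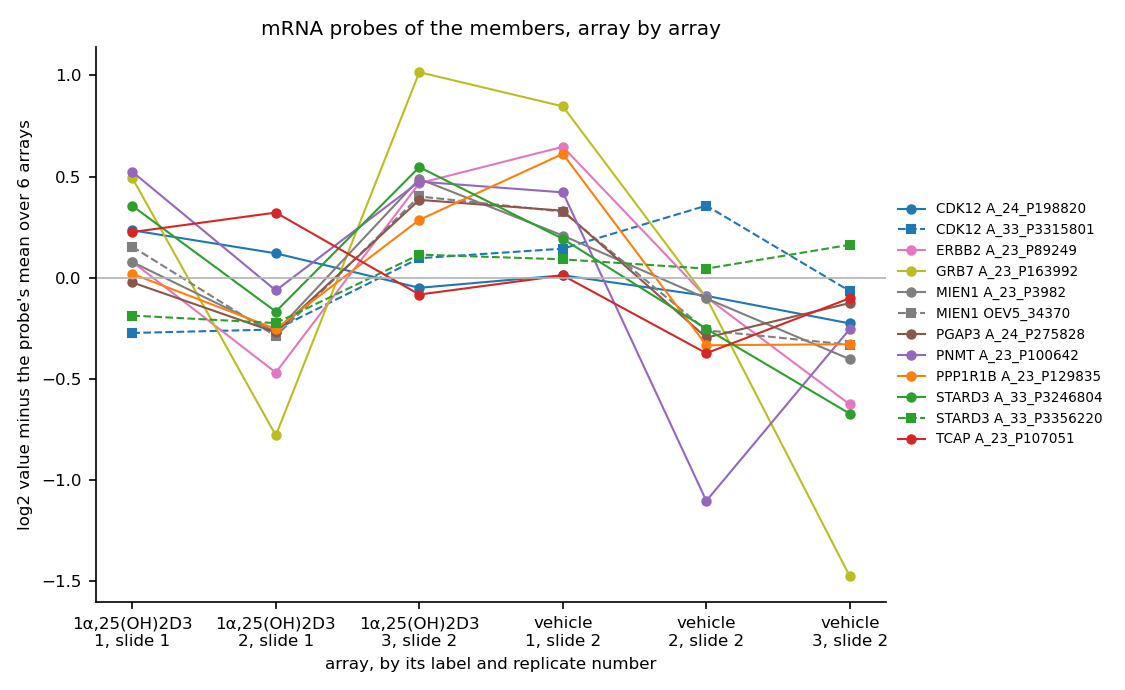
Log2 value minus the probe's own mean over the 6 arrays for the 12 mRNA probes of the members, by array, with the lines joining the values of one probe only to guide the eye. The coding GRB7 probe spans 1.016 to -1.48, and most of the other lines lie above 0 on the arrays labelled 1α,25(OH)2D3 replicate 3 and vehicle replicate 1.

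This order was not the order of CYP24A1. The arrays on which A_23_P28815 was high were those labelled 1α,25(OH)2D3 replicate 2, vehicle replicate 1 and vehicle replicate 3, and there the ERBB2 probe A_23_P89249 stood at 13.25, 14.36 and 13.09, its second lowest, highest and lowest values. On the arrays where A_23_P28815 was low, 1α,25(OH)2D3 replicates 1 and 3 and vehicle replicate 2, it stood at 13.80, 14.18 and 13.62. The coding GRB7 probe stood at 9.33, 10.96 and 8.63 on the former arrays and at 10.60, 11.13 and 10.01 on the latter. No mean or test was taken over these sets, because they are defined by a measured value and not by a label.

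The genes beyond the segment were read the same way. On the centromeric side 14 of 15 listed neighbours had a probe, with a median percentile of 90.3, with STAC2 at 27.5 and PLXDC1 at 76.8 among the lowest, up to the ribosomal protein genes RPL23 at 99.4 and RPL19 at 99.6 and the mitochondrial iron-sulfur protein gene CISD3 at 99.6. On the telomeric side all 22 had a probe and the median was 61.6, from ZPBP2 at 5.06, CCR7 at 9.19 and IGFBP4 at 19.1 to the retinoic acid receptor RARA at 96.3, MED24 at 98.9 and ORMDL3, a regulator of sphingolipid synthesis, at 99.8. The brightest mRNA probe of MED24 stood at 93.5. That of PLXDC1 stood at 25.4 and was well above background on 3 arrays. NEUROD2, a neuronal transcription factor gene between CDK12 and PPP1R1B, stood at 20.02 and was well above background on 0 arrays. The counts at or above 90 were 8 of 14 and 9 of 22, beside 6 of 10 for the members, and bright probes were thus found on both sides of the segment. No share by the brightest probe of any class was taken over all genes, and the 12.7% given above counts mRNA probes alone. Of the neighbours' probes, 36 centromeric and 38 telomeric ones were tested, 0 passed the unadjusted threshold in limma and 0 had an unadjusted p under 0.05, and their median log2 fold changes were -0.05 and -0.03.

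By place alone, 14 mRNA probes had their single genomic match within the span of the members, and 7 of them stood at or above the 90th percentile, beside 2 of 11 in the window of equal length on the centromeric side, 5 of 16 in that on the telomeric side and 9.10% of 23634 over the genome. Apart from the NEUROD2 probe these 14 are the 13 mRNA probes of the members given above. The 7 belong to 5 member genes, so the count is not a separate reading of the members. Of the 15 probes in the span that belong to no member, 5 were well above background on all 6 arrays and 8 on none. The 1 of them at or above the 90th percentile, OEV5_07363, lies at chr17:39615716-39615775 on the minus strand between NEUROD2 and PPP1R1B, at 93.4, and was singled out after its values were seen.

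Of the receptors ERBB2 can pair with, EGFR was read by bright mRNA probes. Those in the untranslated end and in a coding exon had mean percentiles of 89.9 and 84.8. For ERBB3 the probe in the untranslated end stood at 41.0 and the brightest, in an intron, at 65.0. The mRNA probes of ERBB4 were well above background on 0 arrays, and its brightest probe, in an intron, stood at 50.4. Among 27 listed partners of ERBB2 signalling, 26 had a probe well above background on each of the 6 arrays, with a median percentile of 89.9. The 3 highest were the kinase AKT1 at 99.2, the chaperone HSP90AA1 at 98.9 and the exchange factor SOS1 at 95.9, and the 3 lowest were the ligand NRG2 at 23.9, ERBB4 and the MAP kinase phosphatase DUSP6 at 50.8. Of their 69 probes tested, 0 passed the unadjusted threshold in limma. Their log2 fold changes ran from -0.89 to 0.96, with 33 positive and 36 negative. An unadjusted p under 0.05 in limma was reached by 3 of the 69, beside 6.77% of all probes tested. DUSP6 was among the 3, with a log2 fold change of 0.96, an SE of 0.17 and an adjusted p of 0.701 in limma. With 1 array left out the DUSP6 value ran from 0.87 without 1α,25(OH)2D3-labelled replicate 3 to 1.07 without replicate 1 of that label. Of these fits, it passed the unadjusted threshold in limma only in the latter and in that without vehicle-labelled replicate 3, at 1.022. With normexp background correction it was 0.55, and on slide 2 alone, with 1 array against 3, it was 1.13.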

How the data were processed

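The authors scanned single-color Agilent arrays with Feature Extraction 10.7.1.1 (submitters' processing notes) and deposited for every spot its intensity and background flags. They also deposited a table of log2 values, 1 per probe and array, whose sorted columns differ by at most 0.000913, so it had been quantile normalized. Its rank correlation with the scanner intensity was at least 0.999822, and the median of every column was 4.78. These log2 values were used as deposited. The scanner files name hg19, so coordinates come from exact matches of probe sequences to hg38, and gene structures from GENCODE release 44. Labels were compared with limma 3.58.1 in R 4.3.3, without covariates, on the 63337 probes for which either label had all its 3 arrays well above background, with Benjamini-Hochberg adjustment over all of them. The fit was tested on simulated data. The number of arrays limits the precision.

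Named were all probes of the 10 members, the 3 highest and 3 lowest genes of each neighbour and partner list, the ERBB receptors, NEUROD2, CYP24A1 and cell type markers. One gene that this rule would name is not reported here. The members and lists were chosen with earlier results of these data known. Alternatives were other normalizations, filters, blocks and reference probes, each array left out, and an unpaired t-test. Protein sequences were not used here.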

Additional observations from a re-analysis of the deposited data

How the results depend on the processing

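The count of member probes past the unadjusted threshold was 0 under every alternative run, and 9 member genes had a detected probe whether 6 or 3 arrays were asked for. Over the whole table the 472 probes past that threshold became 33 with normexp background correction, 1612 without a filter, 157 with a filter on all 6 arrays, 808 with the slide as a block, 797 within slide 2, 139 with the methods' t-test and 100 among mRNA probes alone, and 296 to 1181 with 1 array left out, at 296 without 1α,25(OH)2D3-labelled replicate 1, 1181 without replicate 3 of that label and 1109 without vehicle-labelled replicate 1. The count after adjustment was 0 except for 4 probes without vehicle-labelled replicate 1. The labels do not say whether the replicate numbers pair the arrays. Same-numbered arrays had deviations correlated at 0.12, 0.09 and -0.03, and unlike-numbered ones at -0.25 to 0.19. With so few arrays these values cannot decide whether there was a pairing. With the replicate number as a block 582 probes passed the unadjusted threshold in limma and 0 after adjustment. In this balanced design that block moves p-values and leaves every fold change as it was.

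The median percentile of the members was 90.5 against 1 probe per gene symbol, 89.4 against mRNA probes well above background on all 6 arrays, 76.5 with the median over a gene's probes and 89.4 with the brightest probe of a protein-coding transcript, an alternative chosen after seeing the data. In the same order the centromeric neighbours gave 87.4, 85.7, 79.2 and 87.5, and the telomeric neighbours gave 55.4 and 43.3 under the first pair and changed less than their spread under the rest.

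Signs turned for the STARD3 probe A_33_P3356220, at 0.0147 with the slide as a block and within slide 2. With 1 array left out the log2 fold change ran from -0.12 to 0.35 for PPP1R1B, -0.12 to 0.24 for PGAP3, -0.25 to 0.39 for the ERBB2 probe A_23_P89249 and -0.13 to 1.03 for the coding GRB7 probe. The causes were not tested.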
